A study of Mus musculus with 16 samples.

Results

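The 10 genes described here mark cells of the melanocyte lineage. They are the transcription factors Mitf and Sox10, the melanin enzymes Tyr, Tyrp1 and Dct, the melanosome proteins Pmel and Mlana, and the transporters and receptor Slc45a2, Oca2 and Gpr143. They were chosen by name, and all 10 were found among the 18929 genes of the expression table. All 10 also passed the filter on low values, which left 12850 genes to be tested. RNA was sequenced from 16 tumors of B16F10, a mouse melanoma line, grown at the right side of the abdomen in female C57BL/6 mice of 7 to 8 weeks, with 4 independent tumors in each of 4 groups. Vehicle mice received corn oil with an isotype control antibody, anti-PD1 mice an antibody against the checkpoint receptor PD1, α-KG mice α-ketoglutarate at 100 mg/kg, and the fourth group (α-KG + anti-PD1, here the combination) both agents. Injections were intraperitoneal and lasted 9 to 11 days. Every group was grown from the same line, so the tumors sample 1 melanoma. The question put to the 10 genes was whether the melanoma cells kept their lineage program and pigment antigens under treatment.

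SOX10 and MITF are the transcription factors that specify melanocytes, and MITF binds E-boxes in the promoters of the pigment genes. Melanin is made in melanosomes, organelles built on PMEL fibrils, where tyrosinase (Tyr) carries out the first and limiting step and Tyrp1 and Dct act on later intermediates. Products of Tyr, Tyrp1, Dct, Pmel and Mlana are also known melanoma antigens of T cells, and melanoma cells can escape T cells by losing them, sometimes together with a shift towards a neural crest-like state.

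The E-box sequences of the pigment genes are shown first, because MITF is known to act on the pigment genes through this motif. RefSeq promoters of assembly GRCm38.p6 (mm10, the build in the submitters' processing notes) were found for 5 of the 10 genes, namely Tyr, Tyrp1, Dct, Oca2 and Mitf. The E-box form CATGTG was searched on both strands in the 250 bases before each start site. It stood 1 time in Tyr, Tyrp1 and Oca2, 2 times in Dct and 0 times in each of the 3 Mitf promoters, and 12.3% of 32851 mouse promoters held it. The windows below give each site with 12 bases on either side, 5′ to 3′ on the strand that reads CATGTG, with the E-box in capitals.
Tyr: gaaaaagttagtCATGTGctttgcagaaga
Tyrp1: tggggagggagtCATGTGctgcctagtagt
Dct, nearer site: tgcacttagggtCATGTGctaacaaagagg
Dct, farther site: ctttattgggctCATGTGtcccagccaagc
Oca2: gaaaattccagcCATGTGtagcaagctcaa

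The Tyr window (chr7:87493516-87493545, minus strand) began its E-box 21 bases before the start site, and the Tyrp1 window (chr4:80834155-80834184, plus strand) 46 bases before it. These windows shared an unbroken run of 11 bases, agtCATGTGct, and the nearer Dct site shared 10 of them, gtCATGTGct, with both. The nearer Dct site (chr14:118052379-118052408, minus strand) lay 150 bases before the start site and the farther one (chr14:118052461-118052490, plus strand) 232 bases before it. The Oca2 site (chr7:56239561-56239590, minus strand) lay 186 bases before the start site and shared the 6 bases of the E-box, CATGTG, with Tyr and Tyrp1. Tyr and Dct lie on the minus strand, and their windows fell outside the spans of the genes (chr7:87424771-87493512 and chr14:118012790-118052246). The Tyrp1 window lay inside the span of its gene (chr4:80834123-80851736), which begins at an earlier start site. The other E-box form searched, CACGTG, was in none of these promoters and in 6.02% of all promoters. Among SOX core motifs, ACAAAG stood 1 time in Tyrp1, 1 time in Oca2 and 2 times in Dct (16.5% of all promoters held it), and ACAATG stood 1 time in Dct (10.7%). No match shared a base with another. A match is a run of letters and was not tested for binding. The other genes lie at chr6:97807002-98021360 (Mitf), chr15:79154913-79164490 (Sox10), chr10:128695888-128720238 (Pmel), chr19:29697541-29708447 (Mlana), chr15:11000721-11029233 (Slc45a2), chr7:56239593-56536518 (Oca2) and chrX:152781921-152808651 (Gpr143).

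All 10 genes were expressed in every tumor. Levels are given in FPKM, in which fragments are scaled to transcript length and to the size of the library, and the lowest was 18.2 FPKM for Oca2. Tyrp1 had the highest mean level over the 16 tumors, 2786 FPKM, and ranked 15 among the 18929 genes, followed by Dct (2717 FPKM), Pmel (2225 FPKM) and Mlana (1034 FPKM). Next came Slc45a2 (352 FPKM), Sox10 (228 FPKM), Tyr (161 FPKM) and Mitf (123 FPKM). Gpr143 (23.7 FPKM) and Oca2 (21.8 FPKM) were the lowest. Most neighbours in this order kept it in 16 of 16 tumors. The exceptions were Tyrp1 over Dct, which held in 10 of 16 tumors, Tyr over Mitf in 11 of 16 and Gpr143 over Oca2 in 12 of 16. The differences within these pairs were not tested. Sox10 varied least, 1.40-fold between the lowest and highest tumor, and Mitf most, 2.28-fold. The median of this ratio over the 10 genes was 1.67, and over the 3519 genes with at least the mean level of Oca2 it was 1.57.

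The 10 genes together took 1.37% to 1.98% of the summed FPKM of a tumor. The sums themselves differed between groups, with a mean of 606443 in vehicle and 520921 in combination tumors, and hemoglobin transcripts took 14.1% ± 2.83 (SD, n = 4) and 2.17% ± 0.0673 of them. The summed FPKM of 8 leukocyte genes lay between 44.0 and 183 in vehicle tumors, between 187 and 373 with anti-PD1, between 528 and 578 with α-KG, and between 288 and 1053 with the combination. In these bulk tumors, fewer melanoma cells and less RNA per cell cannot be told apart. The values come without counts, and sequencing depth is therefore unknown. Of 11 keratinocyte and hair follicle markers, which would mark host skin with its own melanocytes, 10 were under 0.5 FPKM in every tumor. Skeletal muscle markers were highest in vehicle tumors, at a summed 71.4 to 816 FPKM, against 6.12 to 93.2 FPKM in the combination.

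None of the 10 genes came near 0 in any group, and the called changes lay between 0.693 and 1.28 times the level of the reference group. Against vehicle, limma on log2(FPKM + 1) called 3 of the 10 genes in combination tumors at an adjusted p under 0.05, and all 3 were lower: Tyr, Tyrp1 and Slc45a2. Among all 12850 genes this comparison called 45.3%, and 10.5% were called lower. None of the 10 separated the groups without overlap, which 34.8% of all genes did. The 10 genes had a median log2 difference of -0.06, against 0.15 over all genes. In α-KG tumors 1 gene was called, Mlana, which was higher, where 15.9% of all genes were called and 8.4% were called higher. In anti-PD1 tumors 0 of the 10 were called by limma, where 0.747% of all genes were. Of the 10, 3 (Mitf, Mlana and Gpr143) had an unadjusted p under 0.05, as did 2130 of all 12850 genes. Each of these comparisons uses the same 4 vehicle tumors.

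**Figure D1:**
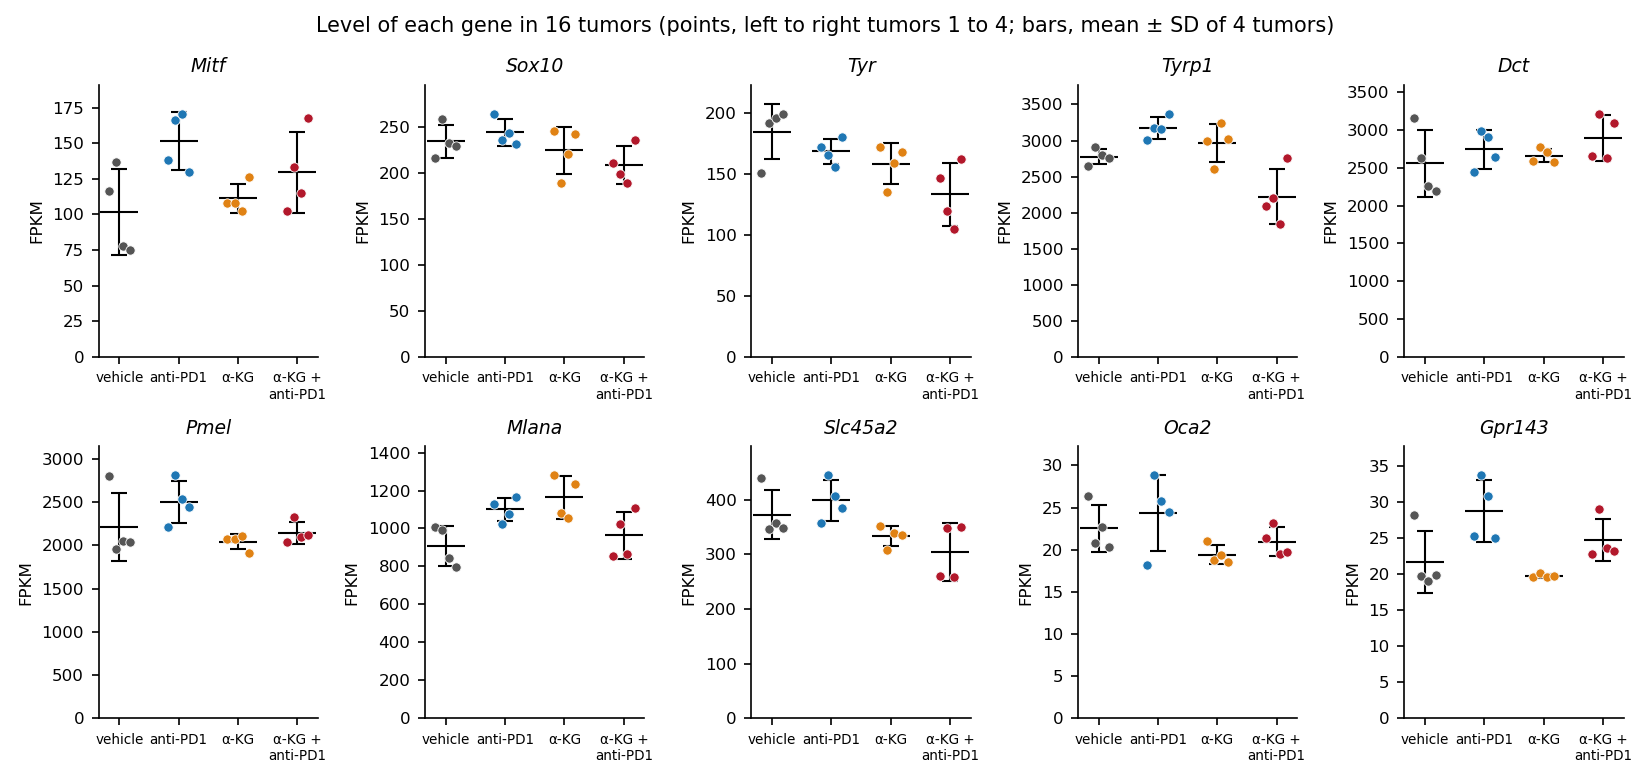
Level of each of the 10 genes in FPKM (y axis, starting at 0) in the 4 groups (x axis), with 1 point per tumor, a horizontal line at the mean and bars of ± 1 SD of 4 tumors. No gene came near 0 in any tumor, and the combination points of Tyr and Tyrp1 reach lowest.

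Mitf, the master regulator of pigment genes, spread widely among vehicle tumors. In vehicle tumors 1 to 4 it stood at 116.5, 136.6, 77.7 and 74.9 FPKM, and in anti-PD1 tumors at 137.9, 166.5, 170.8 and 130.0 FPKM. In α-KG tumors it stood at 108.2, 108.2, 102.7 and 126.4 FPKM, and in combination tumors at 102.4, 133.1, 115.2 and 168.0 FPKM. Vehicle tumors 3 and 4 were the lowest of all 16, and vehicle tumor 2 lay within the anti-PD1 range, so that the groups overlapped. The log2 difference of anti-PD1 from vehicle was 0.61 ± 0.18 (SE), with an adjusted p of 0.112, from 0.0475 to 0.391 over all alternatives. That of combination from vehicle was 0.37 ± 0.18, with an adjusted p of 0.107, from 0.0247 to 0.77 over all alternatives. Without vehicle tumor 1 the anti-PD1 difference passed the test (0.69, adjusted p 0.0475), and without vehicle tumor 2 the combination difference did (0.53, adjusted p 0.0247). The table gives 1 value for Mitf, which has 3 promoters in RefSeq, so the melanocyte form was not separated from the others.

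Sox10, the factor upstream of Mitf, was the steadiest of the 10. Its levels were 215.8, 258.5, 231.8 and 229.5 FPKM in vehicle and 264.1, 235.5, 243.5 and 231.4 FPKM in anti-PD1 tumors. They were 245.1, 189.2, 220.6 and 241.9 FPKM in α-KG and 210.9, 198.2, 188.5 and 235.9 FPKM in combination tumors. The groups overlapped in every comparison, and no difference of Sox10 was called. The closest was combination against anti-PD1, with a log2 difference of -0.23 ± 0.09 and an adjusted p of 0.097, from 0.0205 to 0.816 over all alternatives, which became 0.0437 (log2 difference -0.29) without combination tumor 4.

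Tyr, the rate-limiting enzyme of melanin synthesis, was lower in combination than in vehicle tumors. The vehicle tumors had 151.0, 192.4, 196.2 and 199.7 FPKM and the anti-PD1 tumors 172.4, 165.5, 156.0 and 180.9 FPKM. The α-KG tumors had 172.4, 135.3, 159.1 and 168.3 FPKM and the combination tumors 147.0, 119.5, 105.3 and 162.4 FPKM. Group means were 185 FPKM ± 22.7 (SD, n = 4) for vehicle and 134 FPKM ± 25.9 (SD, n = 4) for combination. Vehicle tumor 1 stood below the other vehicle tumors and within the combination range, so the groups overlapped. The log2 difference was -0.48 ± 0.13, a level 0.718 times that of vehicle, with an adjusted p of 0.00731. This call held without any single tumor (log2 differences of -0.58 to -0.37) and was lost when all tumors were set to the same FPKM sum (-0.26, adjusted p 0.106, where all alternatives ran from 0.00103 to 0.106). The differences of anti-PD1 (-0.12 ± 0.13) and α-KG (-0.22 ± 0.13) from vehicle were not called. Against anti-PD1 the combination difference was -0.35 ± 0.13 with an adjusted p of 0.0672, from 0.021 to 0.333 over all alternatives, which passed the threshold without vehicle tumor 1 (0.0453) or without combination tumor 4 (0.021, log2 difference -0.45). Against α-KG it was -0.26 ± 0.13 (adjusted p 0.113, from 0.016 to 0.83 over all alternatives) and among the fits without 1 tumor passed only when that tumor was left out (-0.36, adjusted p 0.032). In the combination 8 of 8 leukocyte genes were called higher than in vehicle and 7 of 7 red cell genes, 8 of 8 skeletal muscle genes and 9 of 12 cell cycle genes lower, and their part in the differences of Tyr, Tyrp1 and Slc45a2 was not tested.

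Tyrp1, the enzyme that oxidizes a late melanin intermediate, was lowest in combination tumors in all 3 comparisons with that group. Vehicle tumors had 2646, 2911, 2798 and 2759 FPKM, and anti-PD1 tumors 3005, 3172, 3161 and 3372 FPKM. Levels in α-KG tumors were 2990.0, 2601, 3249 and 3019 FPKM, and those in combination tumors 2087, 2205, 1846 and 2755 FPKM. The combination group lay wholly below the anti-PD1 group, and its tumor 4 overlapped the vehicle and α-KG ranges. Against anti-PD1 the log2 difference was -0.53 ± 0.12 (0.693 times, adjusted p 0.0143), against α-KG -0.43 ± 0.12 (0.744 times, adjusted p 0.0104) and against vehicle -0.34 ± 0.12 (0.792 times, adjusted p 0.0283). In the comparison with anti-PD1, 15.5% of all genes were called and 1.31% were called lower, and 2 of the 10 were called, both lower. The comparison with α-KG called 38.3% of all genes, 6.47% lower, and 1 of the 10. The separation of the combination below anti-PD1 was shared by 2.99% of all genes, and by 2 of the 10.

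The effect of anti-PD1 on Tyrp1 also depended on α-KG. The interaction, the anti-PD1 difference with α-KG minus that without it, was -0.62 ± 0.16 on the log2 scale (adjusted p 0.0272), where 11.1% of all genes had a called interaction and 3.13% a negative one. Alone, anti-PD1 stood above vehicle in all 4 tumors (log2 difference 0.19 ± 0.12, adjusted p 0.417). The call against α-KG (adjusted p from 0.00231 to 0.604 over all alternatives) held without any single tumor (-0.53 to -0.34) and in 6 of 8 other alternatives, but not with quantile normalization (-0.08, adjusted p 0.604) or the same FPKM sum (-0.20, adjusted p 0.18). The call against vehicle (adjusted p from 0.00278 to 0.437 over all alternatives) was lost without vehicle tumor 2, 3 or 4 or combination tumor 1, 2 or 3 (log2 differences of -0.34 to -0.25, adjusted p 0.0503 to 0.104), and with quantile normalization (-0.17, adjusted p 0.219), the same FPKM sum (-0.12, adjusted p 0.437), no filter (adjusted p 0.0894) or only the compared groups (0.067), passing in 4 of 8 other alternatives. The call against anti-PD1 (adjusted p from 0.00371 to 0.0841 over all alternatives) was lost without anti-PD1 tumor 4 (-0.50, adjusted p 0.054) or combination tumor 3 (-0.45, adjusted p 0.0555), and with quantile normalization (-0.30, adjusted p 0.0841) or only the compared groups (0.0687, a fit that called 0 of 12850 genes). The interaction (adjusted p from 0.00893 to 0.448 over all alternatives) was lost without those tumors (-0.59, adjusted p 0.0624, and -0.54, adjusted p 0.0515) or without α-KG tumor 3 (-0.57, adjusted p 0.0638). It was also lost with quantile normalization (-0.21, adjusted p 0.448), the same FPKM sum (-0.42, adjusted p 0.0936) and no filter (0.0864), passing in 4 of 7 other alternatives.

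Dct, the tautomerase of the same pathway, did not follow Tyr and Tyrp1. Its range was 2192 to 3155 FPKM in vehicle, 2440.5 to 2994 FPKM in anti-PD1, 2579.6 to 2770.0 FPKM in α-KG and 2629.6 to 3218 FPKM in combination tumors. All groups overlapped. The difference of combination from vehicle was 0.19 ± 0.12 on the log2 scale (adjusted p 0.22, from 0.018 to 0.496 over all alternatives). Without vehicle tumor 1, the highest of its group, it was 0.30 with an adjusted p of 0.0412.

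Pmel, which forms the fibrils of the melanosome, had no called difference. It ranged over 1956 to 2800.3 FPKM in vehicle, 2215 to 2812 FPKM in anti-PD1, 1915 to 2108 FPKM in α-KG and 2042 to 2331 FPKM in combination tumors. Apart from vehicle tumor 1, the vehicle, α-KG and combination tumors lay close together, between 1915 and 2331 FPKM. The log2 difference of combination from vehicle was -0.03, with a 95% confidence interval of -0.27 to 0.22.

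Mlana, the melanosome antigen also known as MART-1, was higher in α-KG than in vehicle tumors. It stood at 1006, 992.5, 844.0 and 795.5 FPKM in vehicle and 1131, 1026, 1077 and 1168 FPKM in anti-PD1 tumors. It stood at 1281, 1080.4, 1056 and 1236 FPKM in α-KG and 856.7, 1024, 866.8 and 1107 FPKM in combination tumors. Every α-KG tumor and every anti-PD1 tumor lay above every vehicle tumor, a separation upwards that 10.1% and 5.0% of all genes showed in these comparisons. The α-KG difference was 0.36 ± 0.11 on the log2 scale (1.28 times, adjusted p 0.0351) and the anti-PD1 difference 0.28 ± 0.11 (1.21 times, adjusted p 0.214). With both agents the difference was 0.08 ± 0.11 (adjusted p 0.556), and the interaction was -0.56 ± 0.15 (adjusted p 0.0321). Against α-KG the combination difference was -0.27 ± 0.11 (adjusted p 0.0565, from 0.0051 to 0.825 over all alternatives), and it passed without vehicle tumor 1 (adjusted p 0.0499) or combination tumor 4 (-0.34, adjusted p 0.0256). The α-KG call (adjusted p from 0.0207 to 0.181 over all alternatives) was lost without vehicle tumor 3 or 4 or α-KG tumor 1 or 4 (0.30 to 0.33, adjusted p 0.0771 to 0.12). Of 8 other alternatives it passed only with the pseudocount of 0.1. It was lost under each of the 4 other scalings (0.22 to 0.35, adjusted p 0.0744 to 0.181), with no filter (0.0638), with only the compared groups (0.0651) and with the replicate block (0.0557). The interaction (adjusted p from 0.017 to 0.188 over all alternatives) was lost without any 1 of vehicle tumors 3 and 4, anti-PD1 tumors 1 and 4, α-KG tumors 1 and 4, or combination tumors 1 and 3 (-0.54 to -0.49, adjusted p 0.0524 to 0.072). It passed in 2 of 7 other alternatives, and was lost with quantile normalization (-0.35, adjusted p 0.188), the same FPKM sum (-0.35, adjusted p 0.161), that sum without hemoglobin (adjusted p 0.0509), no filter (0.0583) and the replicate block (0.0517). The α-KG tumors also had 8 leukocyte genes at a summed 528 to 578 FPKM and 6 neutrophil genes at 1081 to 2877 FPKM, against 44.0 to 183 and 22.9 to 41.5 FPKM in vehicle, and their part in the Mlana difference was not tested.

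Slc45a2, a melanosome transporter, was lower in combination tumors than in anti-PD1 and vehicle tumors. Vehicle tumors held 439.7, 346.7, 357.9 and 348.4 FPKM and anti-PD1 tumors 358.1, 445.2, 406.4 and 385.6 FPKM. In the α-KG group the tumors held 351.6, 307.4, 339.4 and 335.1 FPKM, and in the combination group 259.9, 349.2, 257.9 and 350.5 FPKM. The last group fell into a lower pair (tumors 1 and 3) and a higher pair (tumors 2 and 4), and all 4 lay below every anti-PD1 tumor. The log2 difference was -0.40 ± 0.11 from anti-PD1 (0.758 times, adjusted p 0.0329) and -0.30 ± 0.11 from vehicle (0.811 times, adjusted p 0.0424). From α-KG it was -0.15 ± 0.11 (adjusted p 0.332), and those groups overlapped. The first (adjusted p from 0.0106 to 0.254 over all alternatives) was lost without any 1 of the anti-PD1 tumors or combination tumor 1 or 3 (-0.45 to -0.33, adjusted p 0.0531 to 0.106). It passed in 3 of 8 other alternatives, and was lost with quantile normalization (adjusted p 0.0827), the same FPKM sum (-0.21, adjusted p 0.254), no filter (0.05004), only the compared groups (0.087, a fit that called 0 of 12850 genes) and the replicate block (0.0543). The second (adjusted p from 0.000956 to 0.638 over all alternatives) was lost in 10 of 16 fits without 1 tumor (adjusted p 0.0503 to 0.139), namely those without vehicle tumor 1, 3 or 4, anti-PD1 tumor 3 or 4, α-KG tumor 1, 3 or 4, or combination tumor 1 or 3 (-0.33 to -0.22). It passed in 2 of 8 other alternatives, and was lost with quantile normalization (-0.21, adjusted p 0.221), the same FPKM sum (-0.08, adjusted p 0.638), that sum without hemoglobin (adjusted p 0.0796), no filter (0.0603), only the compared groups (0.103) and the replicate block (0.0689).

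Oca2, an anion channel of the melanosome, and Gpr143, a receptor on the melanosome membrane, had no called difference. Oca2 ranged over 20.3 to 26.4 FPKM in vehicle, 18.2 to 28.9 FPKM in anti-PD1, 18.5 to 21.0 FPKM in α-KG and 19.5 to 23.2 FPKM in combination tumors. Gpr143 had 28.2, 19.7, 19.0 and 19.9 FPKM in vehicle and 25.3, 33.7, 30.8 and 25.0 FPKM in anti-PD1 tumors. It had 19.5, 20.1, 19.6 and 19.8 FPKM in α-KG and 22.8, 29.1, 23.6 and 23.2 FPKM in combination tumors. The α-KG tumors were nearly identical for Gpr143, and all lay below every combination tumor, a separation that 29.7% of all genes showed in that comparison. The log2 difference of Gpr143 was 0.39 ± 0.12 for anti-PD1 against vehicle (adjusted p 0.126, from 0.0139 to 0.399 over all alternatives) and 0.30 ± 0.12 for combination against α-KG (adjusted p 0.0646, from 0.0116 to 0.85 over all alternatives). The vehicle and anti-PD1 groups overlapped through vehicle tumor 1, at 28.2 FPKM, and without it both differences passed, at 0.52 (adjusted p 0.0139) and 0.30 (adjusted p 0.0225). Without it the difference of combination from vehicle, 0.19 ± 0.12 with all tumors, was also called (0.32, adjusted p 0.0202, from 0.0202 to 0.87 over all alternatives).

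**Figure D2:**
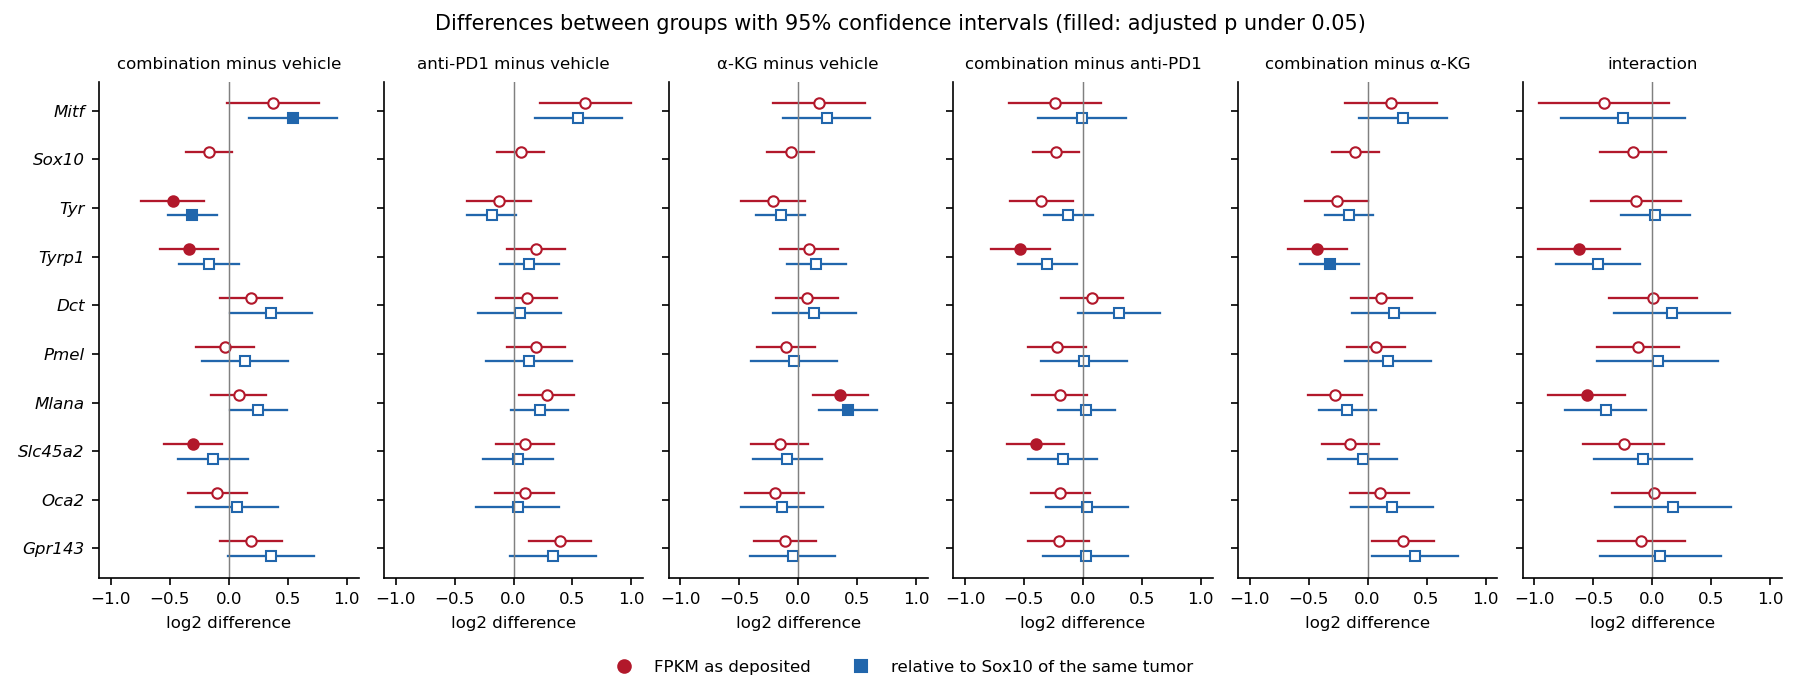
Log2 differences (x axis) of the 10 genes (y axis) for 5 comparisons and the interaction, with 95% confidence intervals from limma over 16 tumors. Red circles are FPKM as deposited, blue squares are values relative to Sox10 of the same tumor, and filled symbols have an adjusted p under 0.05. Tyr is filled on both scales in the comparison of the combination with vehicle, and Mlana on both for α-KG.

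Since the FPKM sums differed between groups, each gene was also set against Sox10 of the same tumor, a difference within the tumor that cancels any multiplier common to its genes. Relative to Sox10, 2 of the other 9 genes were called in combination against vehicle, where 46.1% of 12849 genes were called. Tyr was lower by this measure too, with a log2 difference of -0.31 ± 0.10 (adjusted p 0.0176), and here all 4 combination tumors lay below the vehicle tumors, a separation shown by 1.49% of genes. The Tyr to Sox10 difference was -0.51, -0.42, -0.24 and -0.20 in vehicle tumors 1 to 4, and -0.52, -0.72, -0.83 and -0.54 in the combination tumors. Mitf was higher, by 0.54 ± 0.18 (adjusted p 0.0201), on a scale where 5653 of 12849 genes were called higher and 264 lower. The median difference over all genes on this scale was 0.32. The Tyr call (adjusted p from 0.00812 to 0.0673 over all alternatives) was lost without vehicle tumor 3 or 4 or combination tumor 2 or 3 (-0.29 to -0.25, adjusted p 0.0502 to 0.0673), and the Mitf call (adjusted p from 0.00625 to 0.104 over all alternatives) without vehicle tumor 3 or 4 or combination tumor 2 (0.42 to 0.50, adjusted p 0.055 to 0.0758). With only the compared groups in the fit both were lost (adjusted p 0.0516 and 0.0523), and Mitf was lost relative to the mean of both factors (0.27, adjusted p 0.104). Mitf is part of that reference, so its difference there was bound to be smaller. Without vehicle tumor 1 the calls rose from 2 to 5, adding Dct (0.50, adjusted p 0.014), Mlana (0.34, adjusted p 0.021) and Gpr143 (0.52, adjusted p 0.011), all higher. The share of all genes called in that fit is not given, so the rise cannot be read as particular to these genes. With all tumors kept, 46.1% of genes were called on this scale, most of them higher.

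Relative to Sox10, α-KG against vehicle called 8.02% of 12849 genes, 862 higher and 169 lower. Mlana stayed above vehicle in α-KG tumors on this scale (0.42 ± 0.11, adjusted p 0.0301), with the groups apart as in 9.92% of genes. That call was lost without vehicle tumor 2, 3 or 4 or α-KG tumor 1, 2 or 4 (0.37 to 0.43, adjusted p 0.0505 to 0.124, and from 0.00754 to 0.633 over all alternatives), and it passed in 1 of 6 other alternatives, the pseudocount of 0.1. The combination against α-KG called 36.2% of genes on this scale, 4268 higher and 388 lower. Tyrp1 was lower in combination than in α-KG tumors (-0.32 ± 0.12, adjusted p 0.0439), again with the groups apart, as in 2.42% of genes. That call was lost in 11 of 16 fits without 1 tumor (-0.36 to -0.27, adjusted p 0.0506 to 0.13), the fits without vehicle tumor 1, anti-PD1 tumor 1 or 4, α-KG tumor 4 or combination tumor 4 being those that kept it. It passed in 2 of 6 other alternatives, and over all alternatives its adjusted p ran from 0.0322 to 0.14. No gene was called by limma relative to Sox10 for anti-PD1 against vehicle (0.14% of genes called), combination against anti-PD1 (43.5%) or the interaction (10.7%). Unadjusted p values were under 0.05 for 1, 1 and 2 of the 9 genes there, and for 1597, 7199 and 4432 of all 12849 genes. Tyrp1 in the combination against anti-PD1 (-0.30, adjusted p 0.0501) passed without α-KG tumor 2 (0.0456) or 4 (0.0475) or combination tumor 4 (0.0356), and Gpr143 in the combination against α-KG (0.40, adjusted p 0.0742) passed without vehicle tumor 1 (0.036), α-KG tumor 2 (0.0367) or combination tumor 4 (0.0374).

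How the tumors were put on a common scale decided most other calls with the combination group. On the deposited scale the difference from vehicle was below 0 for 6 of the 10 genes and above 0 for 4. With all tumors at the same FPKM sum it was above 0 for 7, and Mitf (0.59, adjusted p 0.03), Dct (0.41, adjusted p 0.0302) and Gpr143 (0.40, adjusted p 0.0433) were called higher, as were 49.0% of all genes, while none was called lower. With the median gene of each tumor set equal it was below 0 for 9, and 6 were called, all lower, as were 37.4% of all genes: Sox10, Tyr, Tyrp1, Pmel, Slc45a2 and Oca2. The median difference over all genes moved with the scale, from 0.15 to 0.34 and -0.16, and the share of higher calls among all genes from 76.9% to 96.2% and 31.4%. Measured from that median, the median of the 10 genes lay at -0.22 as deposited, at -0.19 with equal sums and at -0.22 with equal medians. Setting medians equal shifts all genes of a tumor alike, so it could not change this distance. Equal sums multiply all genes of a tumor alike, so these values are not independent checks. After quantile normalization the distance was 0.06. That scaling called Tyr (-0.46) and Oca2 (-0.28) lower and Dct (0.45) higher, where 48.5% of all genes were called and 35.9% of those calls were higher. Tyr was below vehicle under each of these scalings.

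**Figure D3:**
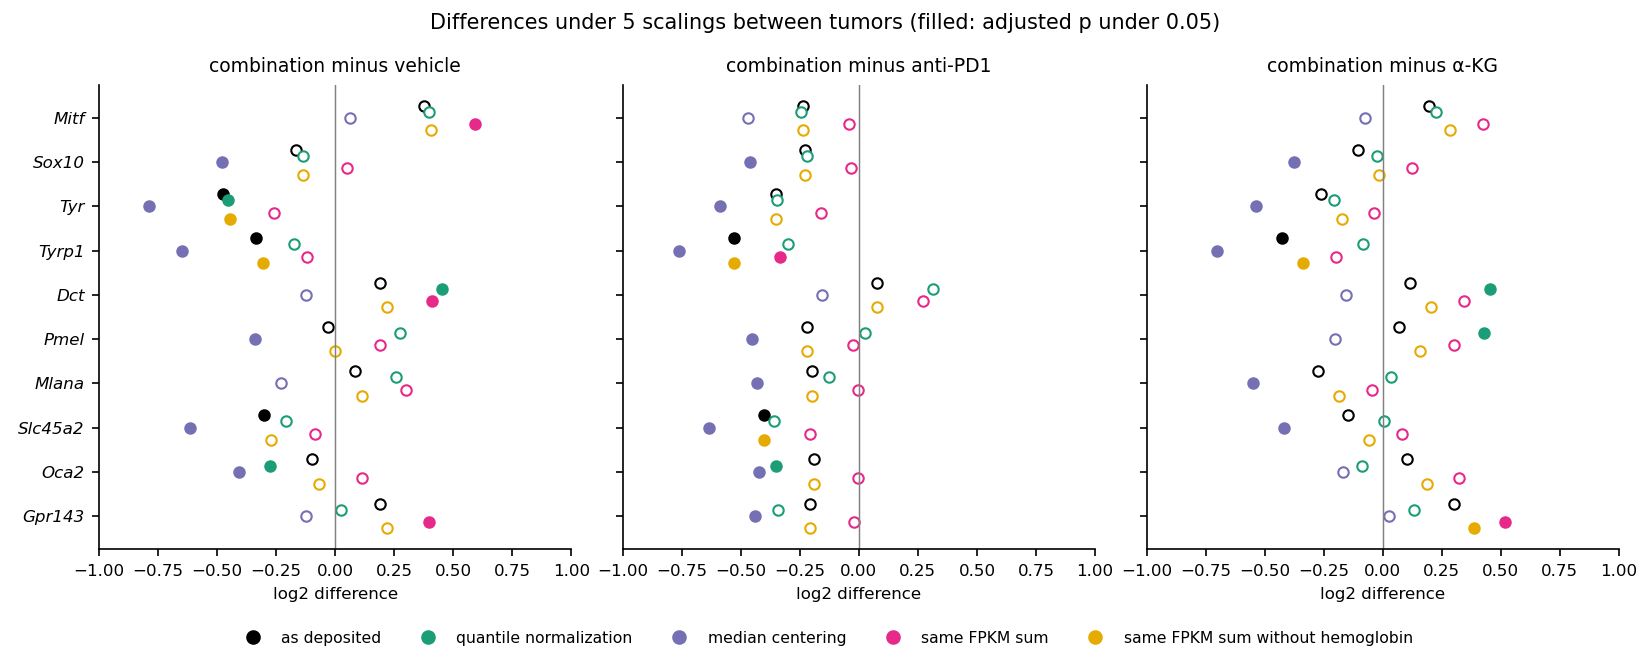
Log2 differences (x axis) of the 10 genes (y axis) in the 3 comparisons with the combination group under 5 scalings between tumors, with filled points at an adjusted p under 0.05. Points shift from scaling to scaling, while Tyr and Tyrp1 stay left of 0 in all 3 panels.

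The 10 genes did not vary as 1 unit across the tumors. Tyr, Tyrp1 and Sox10 varied together, with a Pearson r of log2(FPKM + 1) over the 16 tumors of 0.797 for Tyr and Sox10 (p 0.00031, adjusted p 0.00438 over 12849 genes set against Tyr and 0.0452 over those set against Sox10; Spearman rho 0.65, p 0.00768). For Tyr and Tyrp1 it was 0.737 (p 0.00204, adjusted p 0.0109 against Tyr and 0.038 against Tyrp1; rho 0.529, p 0.0382). Within groups, as deviations from group means, these values were 0.761 (adjusted p 0.0815) and 0.731 (adjusted p 0.124). When combination tumors 2 and 3, which lay farthest from the median of Tyr, were left out, they were 0.641 and 0.362, so the second rests in part on those tumors. By r, Sox10 ranked 248 and Tyrp1 495 among the 12849 genes set against Tyr, so many other genes followed Tyr more closely. Tyr ranked 47 among the genes set against Sox10 and 68 among those set against Tyrp1.

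Gpr143 and Pmel had the highest r of any pair, 0.883 (p 7e-05, adjusted p 0.0428 over the genes set against Gpr143 and 0.0642 over those set against Pmel; rho 0.806, p 0.00032), and Pmel ranked 5 among all 12849 genes by its r with Gpr143. The value was 0.908 within groups (adjusted p 0.0308) and 0.799 without anti-PD1 tumors 2 and 3, the farthest from the median. Pmel and Oca2 had an r of 0.851 (p 7e-05; rho 0.559, p 0.0265), but its adjusted p was 0.128 over the genes set against Pmel and 0.3 over those set against Oca2, and the value was 0.804 within groups (adjusted p 0.0579 and 0.164) and 0.699 without anti-PD1 tumor 2 and vehicle tumor 1. Dct went with Mitf (r 0.693, p 0.00299, adjusted p 0.0225 against Dct and 0.106 against Mitf; rho 0.476, p 0.0633; 0.733 within groups, adjusted p 0.116; 0.611 without combination tumor 2 and vehicle tumor 4, and 0.385 without vehicle tumors 3 and 4) and not with Tyr (r -0.526, p 0.0353, adjusted p 0.0781; rho -0.653, p 0.00763). No pair with Oca2 passed over all tumors, and Oca2 and Gpr143 (r 0.729, adjusted p 0.0668 against Gpr143 and 0.448 against Oca2) passed within groups only against Gpr143 (0.735, adjusted p 0.0446 and, against Oca2, 0.164). Tyrp1 and Slc45a2 had an r of 0.708 (p 0.0027, adjusted p 0.0383 against Tyrp1 and 0.129 against Slc45a2; rho 0.512, p 0.0444), which was 0.528 within groups (adjusted p 0.527 and 0.386) and 0.271 without combination tumors 1 and 3, and so rests on those tumors. Tyrp1 and Sox10 had an r of 0.722 (p 0.00191, adjusted p 0.038 against Tyrp1 and 0.0808 against Sox10; rho 0.6, p 0.0157), which was 0.63 within groups (adjusted p 0.394 and 0.288) and 0.604 without combination tumors 1 and 3. Dct and Gpr143 had an r of 0.653 (p 0.00634, adjusted p 0.0345 against Dct and 0.0887 against Gpr143; rho 0.606, p 0.0148; 0.832 within groups, adjusted p 0.0392 and 0.0291; 0.59 without combination tumor 2 and vehicle tumor 4). Slc45a2 and Pmel had an r of 0.727 (p 0.00163; rho 0.712, p 0.00264) that did not pass (adjusted p 0.11 and 0.347). With each gene set against the other 9, 90 values were computed for the 45 pairs, and 9 had an adjusted p under 0.05. Passing was not particular to these genes. Among the 12849 genes set against Dct, for example, Mitf ranked 1165 by r and Gpr143 1638.

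**Figure D4:**
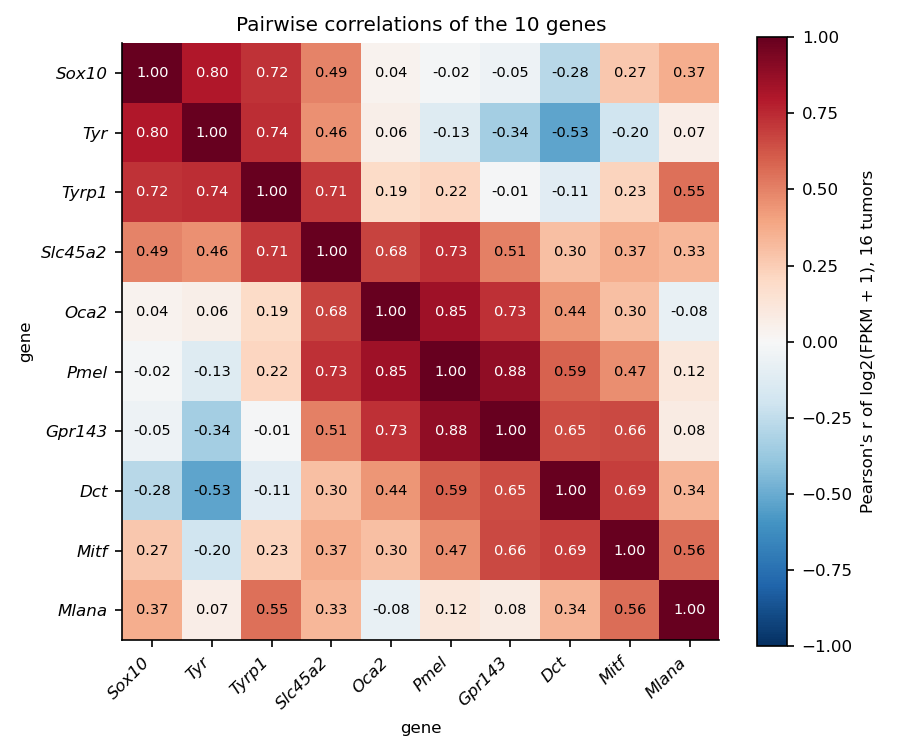
Pearson's r of log2(FPKM + 1) over 16 tumors for each pair of the 10 genes, from -1 (blue) to 1 (red), with the value in each cell. Values are high among Sox10, Tyr and Tyrp1 at the upper left and reach 0.88 for Pmel and Gpr143, with Dct and Tyr at -0.53.

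Of the 10 genes, Tyr alone had a correlation with leukocyte content that passed the test. Its r with the leukocyte score, the mean log2(FPKM + 1) of 8 leukocyte genes, was -0.70 (p 0.00245, adjusted p 0.0148 over all genes; rho -0.691, p 0.00376). Among 12842 genes, 27.1% had such a correlation and 9.79% a negative one. Within groups the r of Tyr was -0.52 (adjusted p 0.411), and without vehicle tumors 3 and 4, the farthest from the median score, it was -0.58. Tyr was highest, at 192 to 200 FPKM, in the 3 vehicle tumors with the lowest scores. Slc45a2 followed with an r of -0.487 (adjusted p 0.132; rho -0.594), and Mlana (0.356), Dct (0.427) and Mitf (0.317) had values above 0, which became -0.23, -0.182 and -0.508 without those 2 tumors. Without vehicle tumors 3 and 4 all 10 genes had an r below 0, among them Slc45a2 (-0.70), Sox10 (-0.581) and Tyrp1 (-0.505), and none passed. A negative value there was therefore not particular to Tyr. With all tumors at the same FPKM sum none of the 10 passed. The r of Tyr was not separated from group membership, since the groups differ in leukocyte content.

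**Figure D5:**
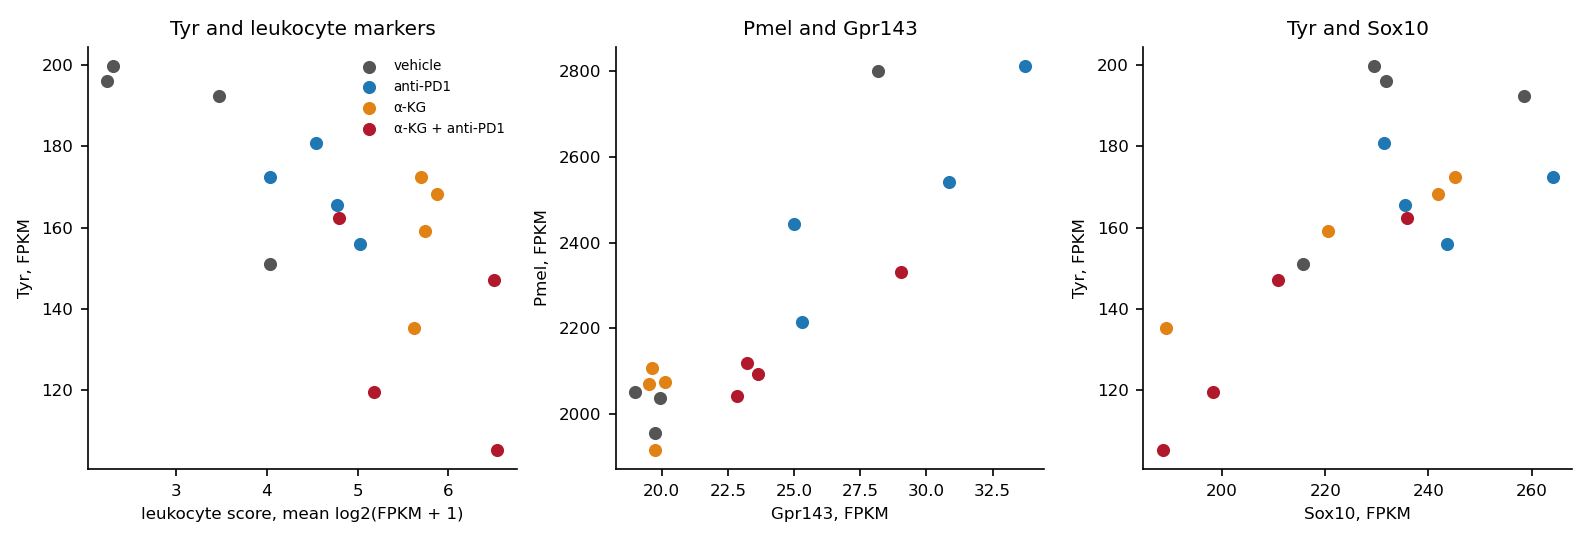
Pairs of measures with 1 point per tumor, colored by group: Tyr (FPKM) against the leukocyte score (left), Pmel against Gpr143 (FPKM, middle) and Tyr against Sox10 (FPKM, right). Axes do not start at 0. Tyr is lower where the score is higher, with an r of -0.70, and the α-KG tumors cluster at the low end for Gpr143.

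Of 32 further genes of melanosome structure, transport and biogenesis, all tested, 12 were higher and 2 lower in combination than in vehicle tumors, where 34.9% of all genes were called higher and 10.5% lower, with a median log2 difference of 0.20 against 0.15 over all genes. The largest were Tpcn2, an endolysosomal channel of the melanosome (1.11 ± 0.23, adjusted p 0.00186, from 3.35 to 8.16 FPKM), and Hps3 and Hps5, subunits of a complex that sorts cargo to melanosomes (0.74 and 0.70). Myo5a, the motor that carries melanosomes, was higher by 0.44 on the log2 scale, and Mlph, the adaptor that links it to melanosomes through Rab27a, differed by -0.42 (65.4 against 87.5 FPKM). Hps4 (0.61), Bloc1s6 (0.32) and Ap3d1 (0.21) were also higher. The other lower gene was Atp7a, named after its values were seen. For α-KG against vehicle 3 were higher and 2 lower, where 8.4% of all genes were higher and 7.53% lower, with Rab32, a GTPase of melanosome biogenesis, higher by 0.65, and for anti-PD1 0 of 32 were called by limma.

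A list of further lineage factors, known MITF targets and melanocyte receptors held 20 tested genes, of which 7 were higher and 0 lower in combination than in vehicle tumors (median 0.24), again beside 34.9% and 10.5% of all genes. Tfap2a, a partner of MITF, was higher by 0.44 (29.0 against 21.0 FPKM). Bcl2 was higher by 0.66 (9.33 against 5.68 FPKM). Bcl2a1d, of the Bcl2 family, was higher by 2.88, and this gene is also expressed by leukocytes. Mia, a secreted melanoma protein, was higher by 1.07 at low levels (at most 1.81 FPKM). Ednrb, the endothelin receptor of melanoblasts, was higher in α-KG than in vehicle tumors by 1.42 (2.76 against 0.38 FPKM) and differed by -1.22 between the combination and α-KG. Ppargc1a, a coactivator under MITF control, was the 1 gene of this list called in anti-PD1 tumors (0.70, adjusted p 0.018, 41.8 against 25.3 FPKM). Tbx2 was lower in α-KG than in vehicle tumors, with a log2 difference of -0.36. In the combination it was higher than with anti-PD1 (0.40) or α-KG (0.57) alone, and its interaction was 0.76.

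Several markers of a dedifferentiated or neural crest-like state were at or near 0. Of 17 such genes, Ngfr, Sox2, Wnt5a, Egfr and Twist1 were under 0.5 FPKM in every tumor, and 10 could be tested. In combination tumors 5 of the 10 tested were higher and 1 lower than in vehicle (median 0.37, beside 34.9% and 10.5% of all genes), and with α-KG 1 was higher and 1 lower (8.4% and 7.53% of all genes). With anti-PD1 0 of the 10 were called by limma. Axl, a receptor tyrosine kinase of invasive melanoma that macrophages also express, was higher by 2.04 (36.9 against 8.88 FPKM), in tumors whose 8 macrophage genes were all higher (summed 681 to 1642 against 98.0 to 491 FPKM). Sox9 was higher by 0.97, at 2.82 to 5.23 FPKM, and Nes differed by -0.67 (2.63 against 4.57 FPKM). The part of macrophages in the Axl difference was not tested.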

How the data were processed

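RNA from 16 B16F10 tumors (4 per group) was enriched for poly(A) transcripts, made into strand-marked libraries with dUTP and sequenced on the DNBSEQ platform. The deposited table gives FPKM per gene and tumor, computed by the authors; their processing notes name mm10, HISAT and Bowtie2, and the counting program, annotation and filters are not given in the sources used here. No counts were used here, so the precision due to depth is unknown and errors are those between tumors.

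Groups were taken from the sample titles. Genes with at least 0.5 FPKM in at least 4 tumors (12850 of 18929) were tested as log2(FPKM + 1) in R 4.3.3 with limma 3.58.1 (trend, 1 model over 4 groups, moderated test, Benjamini-Hochberg adjustment over all tested genes, threshold 0.05). A fold change on this scale understates changes of genes with low values. A further fit used log2 values minus that of Sox10 in the same tumor (12849 genes). Correlations used 100000 permutations, so that p values are two-sided permutation values, in numpy 2.4.6 and scipy 1.17.1 under Python 3.11.15 (tables by pandas 2.3.3). On data simulated for the combination against vehicle over 12850 genes, 87% of genes changed by 1 on the log2 scale and 98% of those changed by 2 were recovered. Promoter windows came from RefSeq, assembly GRCm38.p6.

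The 10 genes and the lists were chosen with earlier results of these data known. All 10 are named. From the other lists the 3 largest called differences between combination and vehicle were named, with any gene called in 3 or more of 6 contrasts, and so were the 10 genes nearest to and the 5 most opposite to the mean of the 10 genes. Alternatives were a pseudocount of 0.1, no filter, 4 scalings, only the compared groups, a replicate block, Mitf or the mean of both factors as reference, and each tumor left out in turn. All 16 tumors were kept in the values reported.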

Additional observations from a re-analysis of the deposited data

Results flagged for a closer look

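Vehicle tumor 1 stood apart from the other 3 vehicle tumors for 4 of the 10 genes, in that its gap to the nearest of them took a larger share of the group's range than Dixon's 95% critical value. Tyr was lower there, at 151.0 FPKM against 192.4 to 199.7 FPKM. Pmel was higher, at 2800.3 FPKM against 1955.9 to 2050.2 FPKM, as were Slc45a2 (439.7 FPKM against 346.7 to 357.9 FPKM) and Gpr143 (28.2 FPKM against 19.0 to 19.9 FPKM). Combination tumor 2 stood apart for Gpr143, at 29.1 FPKM against 22.8 to 23.6 FPKM. Chance flags about 1 in 20 groups, and 5 of 44 groups tested stood apart.

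The effect of anti-PD1 differed with and without α-KG for 2 of the 10 genes by limma's interaction term. It was -0.62 on the log2 scale for Tyrp1 (adjusted p 0.0272) and -0.56 for Mlana (adjusted p 0.0321), where 11.1% of all genes had a called interaction and 3.13% a negative one. The Tyrp1 call held in 13 of 16 fits without 1 tumor and in 4 of 7 other alternatives. The Mlana call held in 8 of 16 and 2 of 7. By limma relative to Sox10 neither was called (adjusted p 0.0781 and 0.104). Tyrp1 and Mlana stood above every vehicle tumor in 4 of 4 tumors with anti-PD1 alone, as did 5.0% of all genes.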

How the results depend on the processing

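Counts of the 10 genes called depended most on the scaling between tumors. For the combination against vehicle (3 called) the count was 1 without the filter on low values, 6 with median centering and 1 with only the compared groups in the fit. Over all genes these settings called 5995 of 18924, 7000 of 12850 and 4866 of 12850. For α-KG against vehicle (1 called) it was 0 without the filter, 0 with quantile normalization, 0 with median centering, 0 with the same FPKM sum, 0 with that sum without hemoglobin and 0 with only the compared groups. In that order the settings called 1915 of 18924 genes, 2683, 2434 and 1246 of 12850, 2423 of 12841 and 1734 of 12850. For the combination against anti-PD1 (2 called) it was 1 without the filter, 1 with quantile normalization, 8 with median centering, 1 with the same FPKM sum and 0 with only the compared groups. In that order the settings called 1395 of 18924 genes, then 1803, 2770 (1968 lower), 4234 and 0 of 12850. The fit with only the compared groups therefore called no gene at all. For the combination against α-KG (1 called) it was 2 with quantile normalization (Dct and Pmel, both higher, with Tyrp1 lost), 1 with the same FPKM sum (Gpr143, higher, with Tyrp1 lost), 5 with median centering (all lower), 2 with the FPKM sum without hemoglobin and 2 with only the compared groups. In that order the settings called 4043, 7197 and 4885 (3127 lower) of 12850 genes, 5727 of 12841 and 4493 of 12850. For the interaction (2 called) it was 0 without the filter, 0 with quantile normalization, 0 with the same FPKM sum and 1 with the sum without hemoglobin. In that order the settings called 1087 of 18924 genes, 1128 and 2394 of 12850 and 1622 of 12841. The cause was not tested.

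Relative to Sox10, the count for the combination against vehicle (2 called) was 0 with only the compared groups. For anti-PD1 against vehicle (0 called) it was 4 relative to Mitf, where Slc45a2 (-0.51) and Oca2 (-0.52) turned from values above 0 to called values below 0. The reference enters these values: as deposited, Mitf differed by 0.61 there, against 0.10 for Slc45a2 and 0.09 for Oca2. For α-KG against vehicle (1 called) the count was 0 without the filter, with only the compared groups, relative to Mitf and relative to the mean of both factors. The alternatives in this paragraph are given without counts over all genes. For the combination against α-KG (1 called) it was 0 without the filter, with only the compared groups and relative to Mitf. Of the genes correlated with the leukocyte score (1 of 10), 2 passed with median centering, 0 with the same FPKM sum, 0 as deviations from group means and 0 without the 2 farthest tumors.

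Leaving out 1 tumor at a time, the counts ran from 1 to 4 for the combination against vehicle, from 0 to 2 for anti-PD1, from 0 to 1 for α-KG, from 0 to 4 for the combination against anti-PD1, from 1 to 3 against α-KG and from 0 to 2 for the interaction. Relative to Sox10 they ran from 0 to 5, 0 to 1, 0 to 1 and 0 to 2 for the combination against vehicle, α-KG against vehicle, and the combination against anti-PD1 and against α-KG. Counts over all genes are not given for these fits, so the ranges cannot be set against a share of all genes. No call on the deposited scale changed direction.

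Deviations of tumors with the same number had correlations of -0.642 to 0.411 over the pairs of groups. These values cannot settle whether the numbers are a pairing, and the sample titles give only a running number. With the replicate block the counts were 2 for the combination against vehicle, 0 for anti-PD1, 0 for α-KG, 1 for the combination against anti-PD1, 1 against α-KG and 1 for the interaction. Over all 12850 genes the block called 5430, 0, 1657, 1533, 4482 and 1010 in that order. Relative to Sox10 the replicate block gave 0 for α-KG against vehicle and 0 for the combination against α-KG. FPKM without counts gives no depth, and 4 tumors a group limit what can be called.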

Other observations

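Genes whose levels followed the mean of the 10 genes over the 16 tumors were led by Met, the receptor of hepatocyte growth factor, with an r of 0.875 (0.874 within groups) and a level of 195 to 283 FPKM. It was followed by Derl1 (0.857), Slc1a4 (0.852), Disp1 (0.849), Ccn2 (0.845), Vkorc1l1 (0.842), Rpn2 (0.834), Slc7a1 (0.828), Lrig3 (0.81) and Adgrl2 (0.808). Derl1 and Rpn2 encode proteins of the endoplasmic reticulum, and Slc1a4 and Slc7a1 amino acid transporters. The most opposite genes were Rbm38 (-0.894), Ptp4a3 (-0.888), Abcb9 (-0.819), Padi2 (-0.802) and Taf12 (-0.79). These are the extremes among 12840 genes in the same 16 libraries, given as a description with no test.

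Tyr was nearest to Copg2 (r 0.956, 0.936 within groups), a subunit of the vesicle coat, and Mitf to Slc38a2 (0.949, 0.929), an amino acid transporter. Mlana was nearest to Timp2 (0.895, 0.804), and Tlr4 (0.869), a receptor of innate immune cells, came after it at rank 3. Pmel and Gpr143 had the same nearest gene, Dnajb7 (0.903 and 0.917).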
